A study of Caenorhabditis elegans with 25 samples.

Results

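The RNA-binding and polarity genes described here are 10 named genes of the nematode Caenorhabditis elegans whose mRNAs are loaded into the oocyte and act in the early embryo. They are oma-1 (C09G9.6, chromosome IV), oma-2 (ZC513.6, V), mex-5 (W02A2.7, IV), mex-6 (AH6.5, II), pie-1 (Y49E10.14, III), pos-1 (F52E1.1, V), mex-1 (W03C9.7, II), mex-3 (F53G12.5, I), spn-4 (ZC404.8, V) and par-6 (T26E3.3, I). They were chosen by name for their known function, with earlier results of these data known. All 10 were found among the 45461 identifiers of the count files. Chromosomes are those of the current Ensembl annotation.

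In C. elegans the embryo starts with mRNAs and proteins made in the maternal germline, and many of these mRNAs stay translationally repressed until the oocyte or embryo needs them. CCCH zinc finger proteins bind such mRNAs through their 3' regions. The PAR proteins set the anterior-posterior axis of the zygote, and the RNA-binding proteins then divide unequally between the somatic and germline daughters.

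RNA-seq was done on rRNA-depleted total RNA in 25 libraries of 9 groups, to compare spermatogenic with oogenic germlines and to follow loss of mes-3, a subunit gene of Polycomb Repressive Complex 2, from father to sperm to offspring. Germline libraries were made from pooled distal gonad arms of day 1 adults, cut at the bend where pachytene ends, so that most growing oocytes and sperm lie outside the dissected part. Male germlines came from N2 wild-type males (n = 2), CB1489 him-8(e1489) males (n = 4), whose mutation raises the frequency of XO males, and mes-3(bn35) homozygous males of strain SS818 with heterozygous parents (n = 3). Sperm are spermatids released from cut him-8 males (n = 3) and mes-3 homozygous males (n = 3). Oogenic germlines came from N2 hermaphrodites (n = 3) and from DH245 fem-2(b245ts) hermaphrodites (n = 3), which carry a temperature-sensitive feminizing mutation. Per the study's methods N2, him-8 and mes-3 worms were kept at 20 °C (the labels give 15 °C for maintenance of strains). By the sample records, fem-2 worms were grown at 15 °C and shifted to 20 °C at the L4 stage for 24 h. Offspring germlines, grown at 15 °C, were oogenic and came from mes-3(bn35) homozygous, fem-2(b245ts) homozygous XX worms of strain SS1167 with mes-3/hT2-GFP; fem-2 mothers. Their fathers were either mes-3 homozygous (M+P-, n = 2) or mes-3/hT2-GFP (M+P+, n = 2), both in the fem-2 background. All groups other than N2 carry a mutation, and temperature and strain change together with several comparisons.

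Libraries held 1078195 to 18617543 counts on genes, and the lowest totals among the dissected germlines were those of N2 oogenic 1 and 2. The 9 spermatogenesis markers (spe-9, gsp-3, msp-142 and others) summed to 26.0 to 43.9 CPM (counts scaled to the same gene total in each library) in N2 oogenic libraries and to 4896 to 5977 CPM in him-8 male germlines. Muscle markers (10 genes, among them unc-54 and myo-3) stood apart in sperm, at 2610 to 6542 CPM in him-8 and 3003 to 5458 CPM in mes-3 sperm, against 87.3 to 193 CPM in mes-3 male germlines. Markers of intestine, hypodermis and gonadal sheath were also raised in mes-3 sperm, at 4015%, 2015% and 670% of the mes-3 male mean. In him-8 sperm they were at 284%, 149% and 164% of the him-8 male mean. Among male germlines, him-8 male 2 held 3638 CPM and N2 male 1 held 1817 CPM of muscle RNA, whereas the other him-8 male libraries held 245 to 308 CPM. For intestine, hypodermis and sheath him-8 male 2 held 484, 313 and 120 CPM, the most of any male germline library. The other him-8 male libraries held 23.9 to 44.9, 11.5 to 21.7 and 3.98 to 5.57 CPM. The him-8 sperm libraries held 248 to 688, 85.8 to 186 and 25.9 to 78.3 CPM. The him-8 male means used for the percents above thus rest largely on him-8 male 2. Transcripts of mes-3 were not lower in mes-3 male germlines (26.9 to 40.2 CPM) than in him-8 male germlines (12.98 to 29.8 CPM), so the RNA level gives no check of the mes-3 labels. In bulk RNA of this kind, fewer cells of a type and less RNA per cell cannot be told apart.

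The maternal genes were far lower in male than in oogenic germlines, and their summed level was lower again in sperm. The 10 genes summed to 5605 ± 435 CPM (SD, n = 3) in N2 oogenic and 5460.1 ± 215 CPM (n = 3) in fem-2 oogenic germlines. In male germlines the sum was 672 ± 70.5 CPM in N2 (n = 2), 703 ± 137 CPM in him-8 (n = 4) and 703 ± 115.2 CPM in mes-3 (n = 3). Sperm held 351 ± 84.0 CPM in him-8 and 476 ± 52.6 CPM in mes-3 (n = 3 each). The offspring oogenic germlines held 4044 ± 210 CPM (M+P-) and 4025 ± 43.8 CPM (M+P+), n = 2 each.

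**Figure D1:**
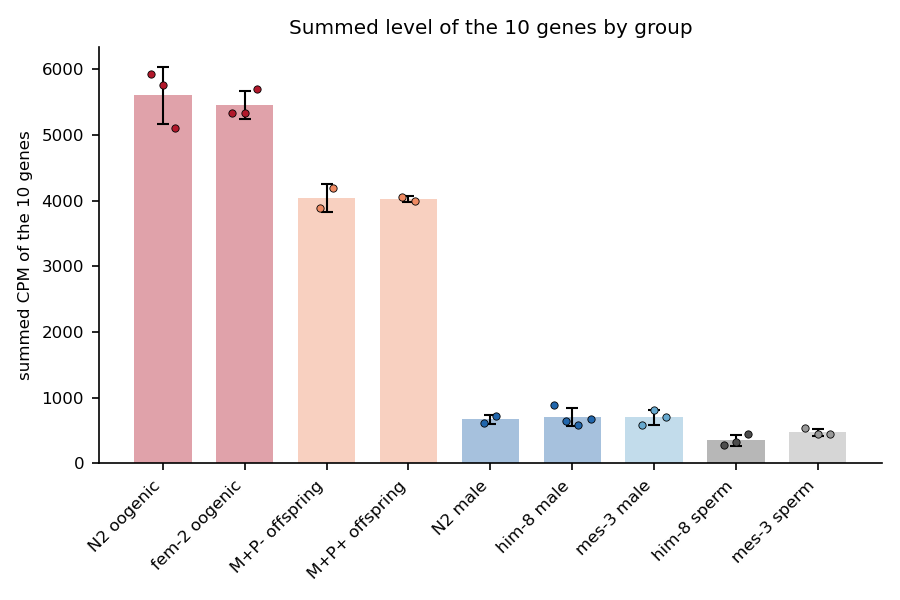
Summed CPM of the 10 genes in each of the 9 groups. Bars are means from a baseline of 0, error bars are SD and points are libraries, and the male and sperm libraries (284 to 898 CPM) lie below every oogenic and offspring library (3896 to 5933 CPM).

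As a share of the oogenic sum, N2 male germlines held 11.99%, with 10.5 to 14.1% over the single pairs of libraries. N2 male 2 and N2 oogenic 3, the only pair with the same tag in their library names, gave 14.1%. For him-8 males against fem-2 oogenic germlines the share was 12.9%, with 10.2 to 16.8% over pairs, and no tag was shared, so that sex, strain and tag cannot be told apart there. In CPM a male library is compared with an oogenic library by its share of all gene counts, and scaling by TMM factors, which centre on the bulk of the genes, raised the shares to 22.7% and 18.1%. The median log2 fold change of all genes tested lay at -0.70 on total counts and at 0.23 after TMM scaling in N2, and at -0.45 and 0.03 in him-8 against fem-2. Per gene, the male share ranged from 3.20% (oma-2) to 29.8% (oma-1) in N2, with a median of 10.1%.

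All 10 genes passed the test as lower in N2 male than in N2 oogenic germlines (edgeR quasi-likelihood test, Benjamini-Hochberg adjusted p from 2.08e-06 to 0.00988), where 22% of the 8574 genes tested were lower. The median log2 fold change of the 10 was -2.39, against 0.23 for all genes tested. Their libraries did not overlap for any of the 10, with the male side lower, a state shared by 55.0% of the genes tested. All 10 were also lower in him-8 male than in fem-2 oogenic germlines (edgeR adjusted p from 3.36e-08 to 0.000447), where 30.4% of 9244 genes were lower and 49.8% did not overlap with the male side lower. The median log2 fold change of the 10 was -2.81 there, against 0.03 for all genes. The calls of both comparisons held in every fit that left out 1 library (highest edgeR adjusted p 0.0364), N2 male 1 and him-8 male 2 among them. The 10 muscle markers were at 663% of the oogenic level in N2 males (328% without N2 male 1) and 594% in him-8 males (145% without him-8 male 2), and their part in the fold changes was not tested.

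**Figure D2:**
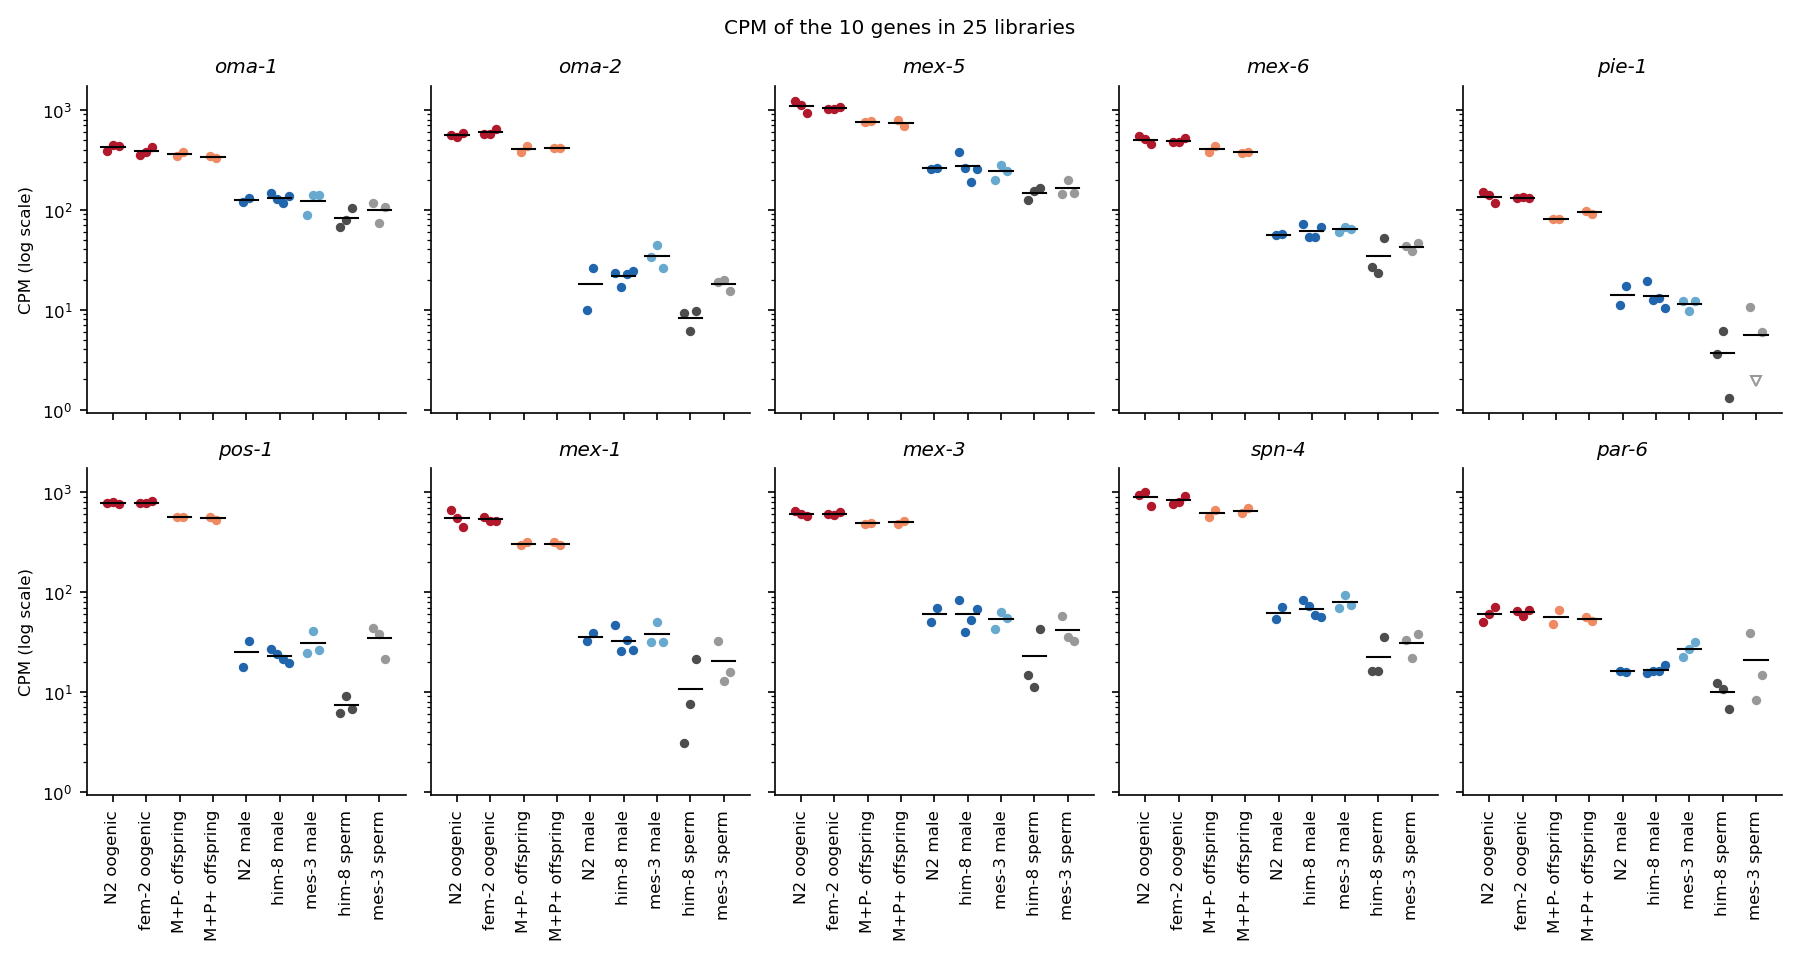
CPM of each gene in each library on a log axis, by group, with 1 point per library and a line at the group mean. The open triangle marks mes-3 sperm 2, which had 0 pie-1 counts and is drawn at the CPM of 3 counts (1.92), and the male and oogenic libraries do not overlap in any panel.

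OMA-1 and OMA-2 are CCCH proteins that act redundantly in oocyte maturation and repress translation of oocyte mRNAs. In CPM, oma-1 was at 387, 444 and 431 in the N2 oogenic libraries and at 119.8 and 131 in the N2 male libraries. The fem-2 oogenic libraries held 355, 375 and 424 CPM of oma-1, and the him-8 male libraries 147, 127, 118 and 136 CPM. All male libraries were thus below all oogenic libraries, with a log2 fold change of -0.82 ± 0.15 (SE, edgeR adjusted p = 0.00146) in N2 and -1.05 ± 0.13 (edgeR adjusted p = 0.000108) between him-8 and fem-2. Its partner differed more. N2 oogenic germlines held 560.2, 539 and 592 CPM of oma-2, and N2 male germlines 9.85 and 26.2 CPM. The him-8 male libraries held 23.3, 16.8, 22.9 and 24.6 CPM, against 579, 577 and 639 CPM in fem-2 oogenic libraries. The N2 male pair differed from each other more than the oogenic libraries did, yet both stayed far below them. The log2 fold change of oma-2 was -4.07 ± 0.33 in N2 (edgeR adjusted p = 1.23e-05) and -4.28 ± 0.13 between him-8 and fem-2 (edgeR adjusted p = 3.36e-08).

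MEX-5 and MEX-6 are closely related CCCH proteins that gather in the anterior cytoplasm of the zygote and drive the germline proteins to the posterior. The level of mex-5 was 1229.8, 1127 and 933 CPM in N2 oogenic and 255 and 264 CPM in N2 male germlines. In fem-2 oogenic germlines it was 1025, 1028 and 1056 CPM, and in him-8 males 381, 263, 191 and 258 CPM. It was the most abundant of the 10 in CPM in every group, oogenic and offspring germlines included. Its log2 fold change was -1.16 ± 0.20 in N2 (edgeR adjusted p = 0.00130). For mex-6 the N2 oogenic libraries held 543, 512 and 451 CPM and the N2 male libraries 55.9 and 57.0 CPM. The 4 him-8 male libraries ranged from 53.3 to 72.0 CPM and the fem-2 oogenic libraries from 474 to 521 CPM. The groups were again apart, and mex-6 fell by 2.22 ± 0.19 on the log2 scale in N2 (edgeR adjusted p = 1.54e-05).

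PIE-1, POS-1 and MEX-1 are CCCH proteins of the germline blastomeres: PIE-1 blocks transcription there, POS-1 controls translation of maternal mRNAs such as glp-1, and MEX-1 is needed for blastomere identity. The N2 oogenic libraries held 776, 788 and 762 CPM of pos-1 and the N2 male libraries 17.7 and 32.4 CPM. In fem-2 oogenic libraries pos-1 was at 771, 776 and 807 CPM, against 26.96, 23.8, 21.3 and 19.7 CPM in him-8 males. Thus pos-1, which varied little between oogenic libraries, was at 3.23% of the oogenic level in N2 males and 2.92% in him-8 males. Its log2 fold change was -4.05 ± 0.25 in N2 (edgeR adjusted p = 2.08e-06) and -4.62 ± 0.16 between him-8 and fem-2 (edgeR adjusted p = 4.87e-08). The least abundant of the 3, pie-1, was at 149, 140.0 and 118 CPM in N2 oogenic and 11.03 and 17.2 CPM in N2 male germlines, a log2 fold change of -2.34 ± 0.26. For mex-1 the N2 oogenic libraries held 657, 557 and 449 CPM and the N2 male libraries 32.7 and 39.0 CPM. That is a log2 fold change of -3.03 ± 0.24 (edgeR adjusted p = 1.15e-05).

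MEX-3, a KH-domain protein, represses pal-1 translation in anterior cells, and SPN-4, an RRM-domain protein, acts in spindle orientation and in translation of maternal mRNAs. The N2 oogenic libraries held 647, 601 and 579.8 CPM of mex-3 and the N2 male libraries 50.0 and 69.3 CPM. The log2 fold change of mex-3 was -2.44 ± 0.19 in N2 and -2.84 ± 0.21 between him-8 and fem-2. The level of spn-4 was 934, 1003 and 725 CPM in N2 oogenic and 53.97 and 70.1 CPM in N2 male germlines. It ranged from 56.2 to 83.9 CPM in him-8 males and from 759 to 920.4 CPM in fem-2 oogenic germlines. No male library reached the lowest oogenic library for either gene, and spn-4 fell by 2.92 ± 0.23 on the log2 scale in N2 (edgeR adjusted p = 9.76e-06).

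PAR-6 is a PDZ-domain protein of the anterior polarity complex with PAR-3 and PKC-3, and it is the only gene of the 10 that encodes no RNA-binding protein. It was also the least abundant in oogenic germlines, with 50.1, 59.9 and 71.2 CPM in N2, against 16.2 and 16.0 CPM in N2 males. In him-8 males par-6 was at 15.6 to 18.6 CPM and in fem-2 oogenic germlines at 57.5 to 66.8 CPM. The male share, 26.6% in N2 and 26.4% in him-8, was close to those of oma-1 (29.8% and 34.3%) and mex-5 (23.7% and 26.4%), and the ranges over library pairs of these 3 overlapped. The other 7 genes were at 3.20 to 11.3% in N2 and 2.92 to 12.54% in him-8.

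**Figure D3:**
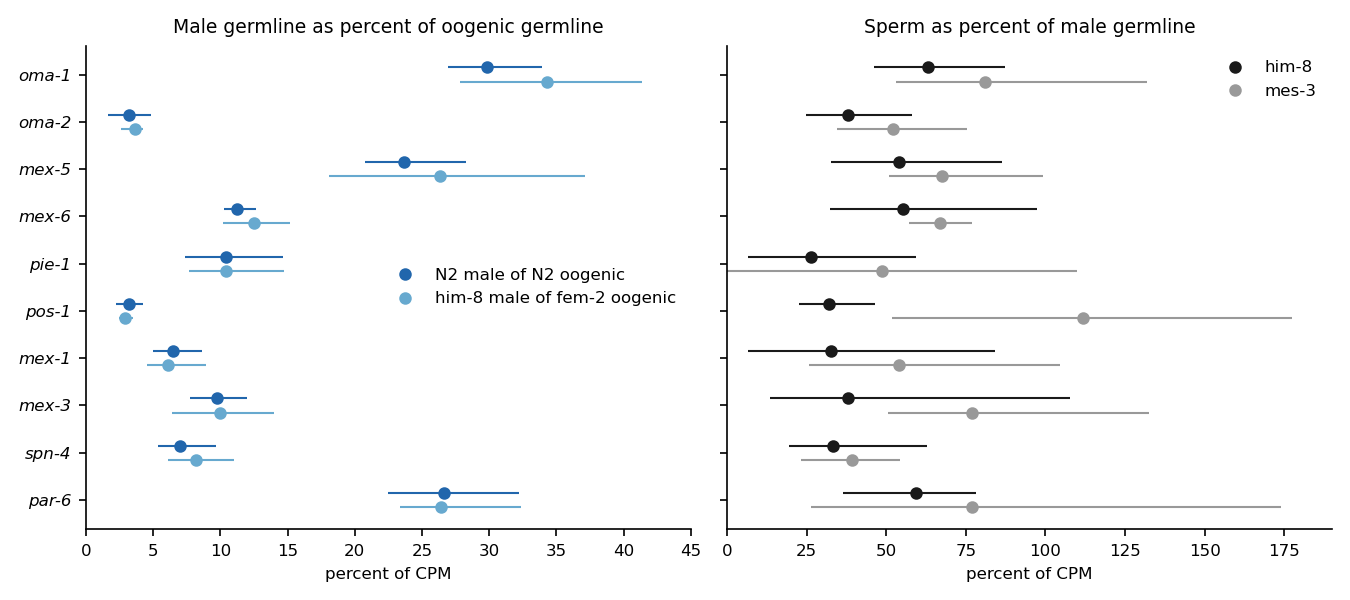
Level of each gene as a percent of the mean CPM of the compared group: male of oogenic germline (left) and sperm of male germline (right). Points are ratios of group means and lines run from the lowest to the highest ratio over single pairs of libraries, and oma-1, mex-5 and par-6 lie to the right of the other 7 genes in the left panel.

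Levels can be compared between genes only per length, as RPKM (CPM per kilobase of the longest transcript). In N2 oogenic germlines the order was pos-1 (693 ± 11.8 RPKM), spn-4 (575 ± 93.8), mex-5 (551 ± 75.8), oma-2 (364 ± 17.2), mex-3 (299.6 ± 16.98), mex-1 (292 ± 54.8), mex-6 (264 ± 24.5), oma-1 (233 ± 16.8), pie-1 (120.1 ± 14.5) and par-6 (42.5 ± 7.44; SD, n = 3). Neighbours among spn-4 and mex-5, and among mex-3, mex-1, mex-6 and oma-1, differed by less than their summed SDs. In N2 males the order was mex-5 (130.4 ± 2.98 RPKM), oma-1 (69.5 ± 4.49), spn-4 (40.2 ± 7.40), mex-6 (29.7 ± 0.392), mex-3 (29.3 ± 6.70), pos-1 (22.4 ± 9.27), mex-1 (18.9 ± 2.33), pie-1 (12.51 ± 3.88), oma-2 (11.7 ± 7.49) and par-6 (11.3 ± 0.0795; n = 2). From mex-6 to mex-1 and from pie-1 to par-6, neighbours in that order lay within their summed SDs. By the RPKM of 15 that the study used for an expressed gene, all 10 were above it in every oogenic and offspring group, 7 in N2 and him-8 males, 9 in mes-3 males, 6 in mes-3 sperm and 3 (oma-1, mex-5 and mex-6) in him-8 sperm. Of all 18985 genes with a length, 26.1% were above 15 RPKM in N2 and 26.04% in fem-2 oogenic germlines, and 28.7% in M+P- and 26.95% in M+P+ offspring. In male germlines the share was 28.5% in N2, 29.9% in him-8 and 30.9% in mes-3, and in sperm it was 24.0% in him-8 and 29.2% in mes-3.

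The paralogous pairs changed their balance between the sexes. Per length, oma-1 stood at 0.592 to 0.707 of oma-2 in the N2 and 0.525 to 0.569 in the fem-2 libraries of oogenic germlines. In male germlines the order turned, with ratios of 4.29 and 10.4 in N2 and 4.43 to 6.497 in him-8. Over the 6 male and 6 oogenic libraries of these strains the geometric mean ratio was 5.66 against 0.593 (two-sided exact permutation test, p = 0.00216, adjusted p = 0.0108 over 10 tests), the smallest p this design allows. The ratio of mex-5 to mex-6 per length lay at 1.98 to 2.17 over the N2 and at 1.94 to 2.08 over the fem-2 oogenic libraries. It was 4.37 and 4.43 in the N2 male and 3.44 to 5.06 in the him-8 male libraries. Its geometric mean was 4.24 in males and 2.05 in oogenic germlines (exact permutation test, p = 0.00216, adjusted p = 0.0108). Within N2 alone, an exact permutation test of 2 against 3 libraries cannot go below p = 0.20, and within him-8 and fem-2 the exact test of 4 against 3 cannot go below p = 0.0571. Both ratios were at those lowest values. In sperm the ratios (3.21 to 11.1 for oma-1 to oma-2, 3.05 to 6.31 for mex-5 to mex-6) overlapped those of male germlines of the same genotype. Whether the 50-base reads were assigned correctly between paralogs was not tested.

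**Figure D4:**
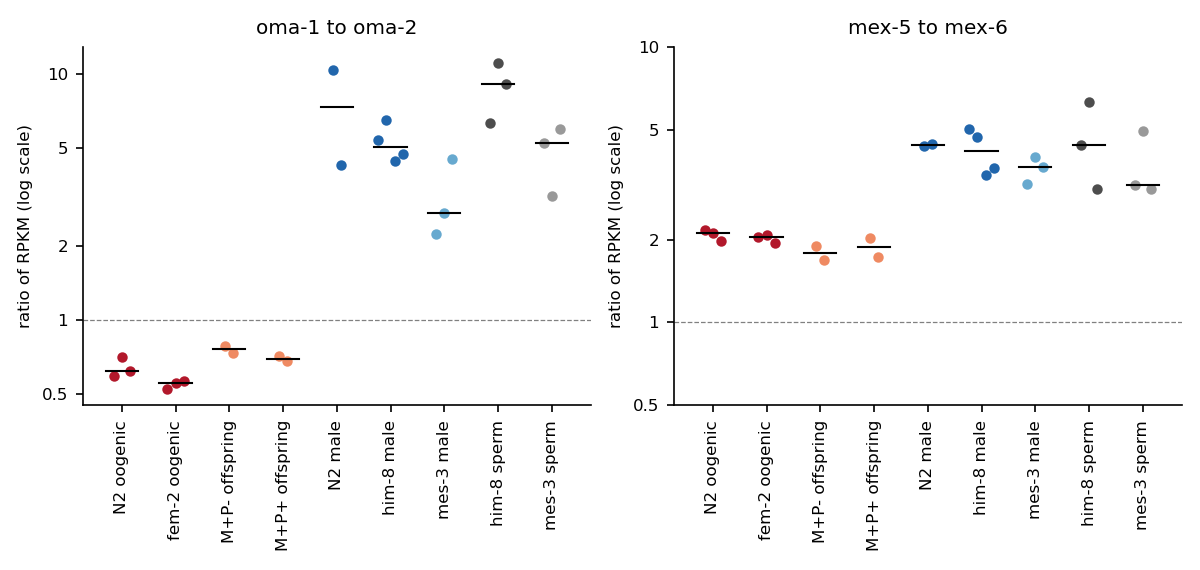
Ratio of RPKM of oma-1 to oma-2 (left) and of mex-5 to mex-6 (right) in each library, on a log axis, with a line at the group median and a dashed line at a ratio of 1. In the left panel every oogenic and offspring library lies below 1 (0.525 to 0.788) and every male and sperm library above it (2.24 to 11.1).

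Between strains of 1 sex, no gene of the 10 passed the test. For him-8 against N2 males the log2 fold changes ran from -0.20 to 0.23 with SEs of 0.15 to 0.36 (edgeR adjusted p = 1.00 for each after rounding), and 0% of the 8303 genes tested were called by edgeR. At an unadjusted p under 0.05 there were 232 such genes, none of them among the 10, and DESeq2 called 14. For fem-2 against N2 oogenic germlines the log2 fold changes lay between -0.11 and 0.11 with SEs of 0.08 to 0.15, and 0.165% of 7874 genes were called. The sex difference itself was compared between the strain sets by an interaction term, which was called for none of the 10 and for 0.0101% of 9916 genes. The largest of these differences was -0.33 ± 0.28 on the log2 scale, for pos-1 (edgeR adjusted p = 1.00).

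The second question was how much of the male germline RNA of these genes is found in sperm. In him-8, sperm held 49.8% of the summed CPM of male germlines, with 31.6 to 76.7% over single pairs, and in mes-3 67.8%, with 54.6 to 91.8% over pairs. Scaling by TMM factors raised these shares to 61.5% in him-8 and 78.4% in mes-3. In CPM the him-8 sperm sum was 6.42% of that of fem-2 oogenic germlines. These sums rest on 558 to 1372 counts per him-8 sperm library and 698 to 1108 per mes-3 sperm library, so single genes are read with few counts. Muscle markers were at 374% of the male germline level in him-8 sperm (1530.2% without him-8 male 2) and 3453% in mes-3 sperm, and markers of meiotic prophase (9 genes) at 47.3% and 51.3%. The part of these other RNAs in the sperm values of the 10 genes was not tested.

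All 10 genes had a log2 fold change below 0 in him-8 sperm, from -0.36 (oma-1) to -1.59 (pie-1). The sperm libraries of 9 genes lay below those of him-8 males without overlap, as did 32.7% of the 8626 genes tested. At an unadjusted p under 0.05 there were 7 of the 10, beside 3864 of the 8626 genes tested in either direction. Only pos-1 and spn-4 passed the test as lower, where 14.4% of all genes did. Sperm libraries held 6.10, 9.14 and 6.81 CPM of pos-1 (12, 18 and 21 counts), against 19.7 to 26.96 CPM in him-8 males, a log2 fold change of -1.32 ± 0.39 (edgeR adjusted p = 0.0349). The level of spn-4 was 16.3, 16.2 and 35.3 CPM in sperm and 56.2 to 83.9 CPM in male germlines, a log2 fold change of -1.29 ± 0.33 (edgeR adjusted p = 0.0201). Both calls depended on single libraries. The pos-1 call was lost without any of the 4 him-8 male libraries or without him-8 sperm 3 (edgeR adjusted p from 0.0525 to 0.108), and the spn-4 call without him-8 male 1 (0.0634) or him-8 sperm 2 (0.0553). The number of the 10 genes called in these fits ran from 0 to 4, and that of all genes from 1335 to 3502. On total counts 6 of the 10 were called, all lower, beside 1934 of all genes tested that were lower. The sperm and male libraries of him-8 also carried different tags in their names, so tissue and tag cannot be told apart there.

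Levels in him-8 sperm differed between the genes. The oma-1 level was 67.7, 78.7 and 103 CPM, or 63.0% of the male germline mean, and mex-5 was at 124, 154 and 165 CPM, or 54.1%. These genes made up 23.7% and 42.2% of the summed sperm CPM of the 10. Their shares were already 18.8% and 38.8% in him-8 male germlines, against 7.51% and 19.6% in N2 oogenic germlines. By contrast pie-1 was at 3.56, 6.09 and 1.30 CPM, from 7, 12 and 4 counts, and mex-1 at 3.05, 7.62 and 21.4 CPM. For oma-2 the sperm values were 9.16, 6.09 and 9.73 CPM, all below the him-8 male libraries (16.8 to 24.6 CPM), with a log2 fold change of -1.07 ± 0.38 that missed the threshold (edgeR adjusted p = 0.0584).

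In mes-3, where sperm and male germline libraries share a tag, spn-4 alone passed the test as lower in sperm. It was at 33.2, 21.8 and 37.8 CPM in sperm and 69.6, 93.1 and 74.4 CPM in male germlines, a log2 fold change of -1.13 ± 0.26 (edgeR adjusted p = 0.00867), where 10.4% of 10018 genes were lower. This call held without any single library (highest edgeR adjusted p 0.0461). The libraries of oma-2, mex-5, mex-6 and spn-4 did not overlap, with sperm lower, against 32.8% of all genes in that direction, and those of the other 6 genes did. Without mes-3 sperm 1 mex-1 was also called, and without mes-3 sperm 2 mex-5 was, which made 2 genes each. In mes-3 sperm 2 no pie-1 count was seen, which allows up to 3 counts or 1.92 CPM, while mes-3 sperm 1 and 3 held 10.5 and 6.03 CPM. The median log2 fold change of the 10 was -0.36 in mes-3 and -1.08 in him-8, beside -0.06 and -0.11 for all genes tested.

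**Figure D5:**
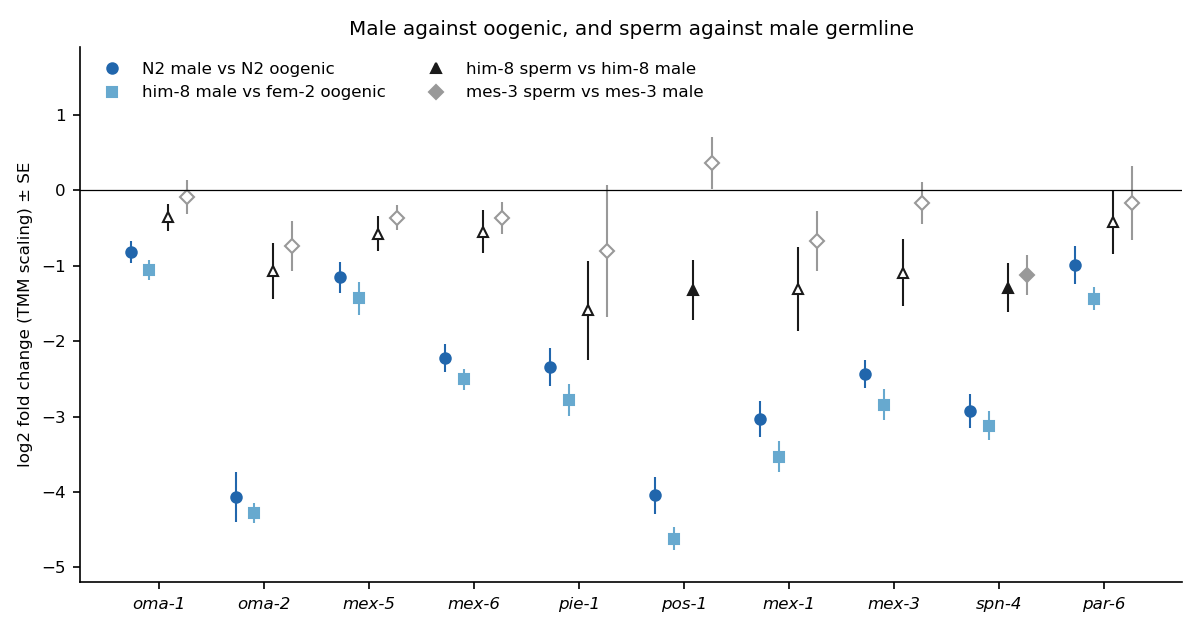
Log2 fold change of each gene (TMM scaling, edgeR) in the comparisons of male with oogenic germlines and of sperm with male germlines, with SE as error bars. Filled symbols passed an adjusted p of 0.05 and open symbols did not, so that all 20 male against oogenic values are filled and 3 of the 20 sperm values are (pos-1 and spn-4 in him-8, spn-4 in mes-3).

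Male germlines and sperm of mes-3 males were compared with those of him-8 males. In male germlines none of the 10 was called between mes-3 and him-8, where 28.0% of 8930 genes were called in either direction, and the log2 fold changes ran from -0.48 (pie-1) to 0.49 (par-6). The libraries did not overlap for par-6, at 22.4, 26.8 and 31.6 CPM in mes-3 and 15.6 to 18.6 CPM in him-8 males (log2 fold change 0.49 ± 0.20, edgeR adjusted p = 0.0956), and for oma-2, at 26.3 to 44.1 against 16.8 to 24.6 CPM. That is 2 of the 10, while 30.9% of all genes tested did not overlap with mes-3 higher. In sperm pos-1 alone was called higher, where 3.22% of 8424 genes were. Its sperm level was 43.8, 37.8 and 21.3 CPM in mes-3 and 6.10, 9.14 and 6.81 CPM in him-8, without overlap, a log2 fold change of 1.92 ± 0.55 (edgeR adjusted p = 0.0413). The call was lost whenever any 1 of the 6 libraries was left out (log2 fold change 1.74 to 2.20, edgeR adjusted p from 0.0600 to 0.165). Sperm libraries of oma-2 did not overlap either, at 15.3 to 19.9 CPM in mes-3 and 6.09 to 9.73 CPM in him-8, but it was not called, and 22.9% of all genes tested did not overlap with mes-3 higher. Whether mes-3 and him-8 differed more in sperm than in male germlines was tested by an interaction term. For pos-1 this term was 1.73 ± 0.52 on the log2 scale (edgeR adjusted p = 0.0900). It was called for none of the 10 and for 2.75% of 10129 genes. The mes-3 and him-8 sperm libraries share a tag, whereas the mes-3 and him-8 male libraries do not. The mes-3 males (SS818) and the him-8 males (CB1489) also differ in strain and in the him-8 mutation. Loss of mes-3 cannot be told apart from these in either comparison.

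In the germlines of offspring no gene of the 10 was called between M+P- and M+P+, and edgeR called 0% of 11962 genes (1244 at an unadjusted p under 0.05, none among the 10, and 134 by DESeq2). The log2 fold changes ran from -0.26 to 0.08 with SEs of 0.13 to 0.26. The level of pos-1 was 569 and 566 CPM in M+P- and 569 and 528 CPM in M+P+ offspring, and that of mex-3 480 and 492 against 485 and 511 CPM. The lowest log2 fold change was that of pie-1, at 80.4 and 80.8 CPM in M+P- and 98.2 and 89.8 CPM in M+P+ germlines, which did not overlap (-0.26 ± 0.19, edgeR adjusted p = 0.685), a state shared with M+P- lower by 19.2% of all genes tested. The values of oma-1, at 347 and 376 CPM in M+P- and 349 and 331 CPM in M+P+ germlines, overlapped.

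Genes that work with these proteins moved less together. Of 11 polarity partners, 5 were called lower and 4 higher in N2 males and 2 were not called, with a median log2 fold change of -0.39. Of all genes tested there, 22% were lower and 38.3% higher. Called lower were, among others, cgef-1 (-4.52 ± 0.56), an exchange factor for CDC-42, and lgl-1 (-2.10 ± 0.60), the worm lethal giant larvae homologue. The higher calls, led by nmy-2 (0.68 ± 0.20), the non-muscle myosin of cortical flow, and the kinase gene par-1 (0.66 ± 0.14), turned to -0.23 and -0.27 and were lost on total counts, where no partner was higher. In him-8 males against fem-2 oogenic germlines 6 of the 11 were lower and none was higher after TMM scaling. With RLE factors, another scaling, 1 was higher. Of the 9244 genes tested there, 2811 were lower and 3125 higher after TMM scaling. In sperm against male germlines 9 were tested in each genotype, with 1 higher (par-1, 0.52) in him-8 and 1 lower in mes-3, and on total counts no partner was higher. Of all genes tested, 16.2% were higher and 14.4% lower in him-8 sperm, and 19% were higher and 10.4% lower in mes-3 sperm.

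Of 18 regulators and targets of these RNA-binding proteins, 14 were called lower and 3 higher in N2 males, with a median log2 fold change of -1.53. In him-8 males against fem-2 oogenic germlines 15 were lower and none higher, beside 2811 lower and 3125 higher of 9244 genes tested. The largest falls were those of puf-5 (-5.10 ± 0.28), a PUF-family translational repressor of late oogenesis, and nos-2 (-3.54 ± 0.32), a Nanos-family gene whose maternal mRNA is translated in the primordial germ cells. The higher calls of taf-4 (0.79 ± 0.22), a general transcription factor gene whose product is bound by OMA-1, and of gld-2 (0.72 ± 0.18), a cytoplasmic poly(A) polymerase gene, changed sign and were lost on total counts (-0.14 and -0.21). In sperm against male germlines 4 of 17 tested were lower and 1 higher in him-8, and 5 of 18 were lower and none higher in mes-3. The shares of all genes in these sperm comparisons are given above. No partner, regulator or target was called in offspring.

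Of 6 other CCCH zinc finger genes (moe-3, ccch-1, ccch-2, ccch-3, ccch-5 and dct-13), 2 passed the filter on low counts in N2. The single call there was ccch-1, higher in N2 males at 5.59 against 2.22 CPM (log2 fold change 2.53 ± 0.67, edgeR adjusted p = 0.0110). In him-8 males against fem-2 oogenic germlines ccch-1 did not pass that filter (5.08 and 1.03 CPM), and of 2 genes tested ccch-5 was called lower, with no count in him-8 males against 2.34 CPM in fem-2 (edgeR adjusted p = 0.00143). The level of ccch-1 was also higher in sperm, at 27.8 CPM in him-8 and 60.8 CPM in mes-3, than in the male germlines of the same genotype (5.08 and 4.30 CPM). Its log2 fold change in sperm was 2.80 ± 0.89 in him-8 (edgeR adjusted p = 0.0427) and 4.04 ± 0.35 in mes-3 (edgeR adjusted p = 1.53e-05). In him-8 sperm moe-3 was called higher as well, at 7.78 against 1.43 CPM. The sum of the muscle markers was higher in every sperm library of mes-3 than in any mes-3 male library, and its part in these values was not tested.

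The profiles of the 10 genes over the 9 group means were alike. Pearson's r of log2(CPM + 1) between each gene and the mean of the other 9 ran from 0.967 (par-6) to 0.998 (mex-3), while the span between the highest and the lowest group differed from 2.33 (oma-1) to 6.56 (pos-1) log2 units. The 5 other protein-coding genes most like their mean profile were egg-1 (r = 0.998), an oocyte surface protein gene needed for fertilization, cbd-1 (0.997), for an eggshell protein, puf-5 (0.997), cpg-3 (0.997), for a chondroitin proteoglycan, and memi-3 (0.997), of a family that acts at the end of oocyte meiosis. Such likeness was common, since 1886 of 7002 genes with a mean of at least 10 CPM had an r above 0.9, and the 9 groups fall mainly into oogenic and non-oogenic ones. The level of egg-1 was 851 CPM in N2 oogenic and 35.4 CPM in N2 male germlines, and that of cpg-3 469.8 and 3.67 CPM, a male share below that of any of the 10. The 9 late oocyte markers (rme-2, cbd-1, cpg-1 and others) summed to 6.83% of the oogenic CPM in N2 males and 8.27% in him-8 males, beside 11.99% and 12.9% for the 10 genes, and to 47.2% of the male level in him-8 sperm, beside 49.8%. In mes-3 sperm these markers were at 79.2% of the mes-3 male level, beside 67.8% for the 10 genes.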

How the data were processed

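The deposited files held raw counts per gene identifier for each library. Per the study's methods, the authors sequenced 50-base single-end reads, aligned them with TopHat2 to the WS220 transcriptome and counted them with HTSeq; versions and strand setting were not given in the sources used here. The deposited RPKM table, computed by the authors from counts and the longest exonic transcript, held means over groups and was used for gene lengths only (kept where whole within 0.01 bases), and levels in RPKM were computed here from the counts with those lengths. Tables of the authors' own fold changes and p-values were not used.

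CPM are counts divided by the library's gene total; HTSeq's summary lines were left out (no feature 3.55 to 18.8%, ambiguous 1.59 to 3.11%). Each comparison was fitted on its own groups with edgeR 4.0.16 (TMM factors, filterByExpr, quasi-likelihood test, Benjamini-Hochberg adjusted p under 0.05 over all genes tested); all 10 genes passed the filter in each. The interactions were fitted on 4 groups. The test was checked on simulated counts with the same spread for all genes and few genes changed, equally up and down. Wide or skewed shifts between groups were not simulated. Alternatives were other scalings and filters, DESeq2 1.42.0, a fit of all 25 libraries, a replicate block and leaving out each library. Paralog ratios used exact permutation tests (scipy 1.17.1).

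The genes and lists were chosen with earlier results of these data known, so no list was tested as a set. From the lists, the genes called in N2 with the largest changes, up to 2 in each direction, were named; par-1 in sperm, ccch-5 and moe-3 were named after their values were seen. The methods call the replicates biological. Library pairs of a group differed by more than counting noise (chi-square per degree of freedom 2.69 to 45.1), so none was merged. Exons of pie-1, mex-1 and spn-4 share 24, 18 and 8 bases with a gene on the other strand, and reads there cannot be told apart without strand. The floors (3 counts) cover counting error only, whereas the SDs and SEs also take in the spread between libraries.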

Additional observations from a re-analysis of the deposited data

How the results depend on the processing

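The 10 genes stayed called as lower in males in both sex comparisons under every alternative with a test; the 2 N2 libraries that share a name tag allow none, and their log2 fold changes were -3.68 to -0.84. No gene of the 10 was called between strains of 1 sex or in offspring in any fit, but DESeq2 gave 8 of them no adjusted p in him-8 against N2 males. In him-8 sperm against male germlines, 2 of the 10 genes were called. Total counts gave 6, no count filter 4 and all 25 libraries in 1 fit 8. The him-8 male libraries of either name tag alone gave 0, and leaving out 1 library 0 to 4. Over all genes, 2643 were called in the fit reported above, 2926 on total counts, 3625 without count filter and 5623 with all 25 libraries. The fits of 1 name tag called 583 and 2554 genes, and those without 1 library 1335 to 3502. In mes-3 sperm against male germlines, 1 of the 10 genes was called. Total counts, no count filter and all 25 libraries in 1 fit gave 2 each, and leaving out 1 library 1 to 2. Over all genes these fits called 3523, 3764, 4268 and 1958 to 2975, against 2941. For mes-3 against him-8, total counts gave 1 (par-6, higher) and him-8 male 1 and 2 alone 1 (mex-5, lower) in male germlines, where 0 were called, and leaving out 1 library gave 0 to 0 in sperm, where 1 was called. Over all genes these fits called 2699 and 2050 against 2504 in male germlines, and 280 to 851 against 865 in sperm. Same-numbered libraries did not deviate together (correlations -0.58 to 0.21, none of the comparisons with 3 pairs above 0.1 in all of them), and the replicate block gave 0 called genes in him-8 sperm against male germlines and 0 in mes-3 against him-8 sperm, and changed no other call of the 10.

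The male share of the oogenic sum was 11.99% in N2 on total counts, 22.7% with TMM factors, 23.3% with RLE factors, 14.1% in the 2 libraries that share a name tag, and 11.1 to 12.9% leaving out 1 library. For him-8 against fem-2 the values were 12.9%, 18.1%, 20.1% and 11.7 to 13.6%. The him-8 sperm share of the male sum was 49.8%, 61.5% with TMM factors, 63.7% with RLE factors and 43.1 to 54.9% leaving out 1 library. The mes-3 sperm share was 67.8%, 78.4% with TMM factors, 82.4% with RLE factors and 62.6 to 73.7% leaving out 1 library. No log2 fold change of the 10 that was called changed sign. The split of called genes moved with the scaling: 63.5% higher in N2 males after TMM scaling and 35.3% on total counts, 52.6% and 37.5% in him-8 against fem-2, 53.01% and 33.9% in him-8 sperm, 64.6% and 46.7% in mes-3 sperm, 43.6% and 63.4% in mes-3 males and 31.3% and 63.2% in mes-3 against him-8 sperm. Fits without 1 library that leave a group with 1 sample assume that it varies like the other group. Counts over all genes moved too: the block gave 1067 calls against 2643 in him-8 sperm, 375 against 865 in mes-3 against him-8 sperm, 1609 against 2504 in mes-3 males and 543 against 0 in offspring; all 25 libraries in 1 fit gave 5623, 2494, 2351 and 10, and 5 against 0 between him-8 and N2 males; leaving out 1 library gave 23 to 583 in offspring; no count filter gave 15 there, 12 in those males and 116 against 13 in fem-2 oogenic germlines. The causes were not tested. Sperm values of pie-1, oma-2, par-6, mex-1 and pos-1 rest on 0 to 83 counts per library. The muscle levels without N2 male 1 or him-8 male 2 were added after seeing the data.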
